A study of Mus musculus with 16 samples.

Results

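Histone marks at 6 genes of the cholesterol pathway were examined in female (XX) and male (XY) mouse embryonic stem (ES) cells. Sqle, Fdft1 and Idi1 encode synthesis enzymes, and Srebf1, Srebf2 and Insig1 regulators of synthesis and uptake. The genes were chosen by name, 6 of 22367 annotated protein-coding genes, and each region that overlapped the body of a gene or lay within 50 kb of its annotated start was collected. The study compared the chromatin of the 2 sexes by chromatin immunoprecipitation and sequencing (ChIP-seq) with antibodies against H3K27Ac, H3K4Me1 and H3K27Me3. The labels describe 16 libraries, with 2 for each sex and mark, 1 IgG control and 1 input for either sex. The methods give 2 independent lines per sex for ChIP-seq. A difference between the sexes therefore cannot be told apart from one between these lines. All ES cells, female and male, were of early passage, labelled with the strain C57BL/6 x CAST/EiJ (followed by a generation number that differs in every library), and grown in serum/LIF on inactivated embryonic fibroblasts, which the methods state were depleted before harvest.

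The values are the edges of enriched regions in mm9, in 1 list per sex and mark, 6 lists in all. No list holds a score, a read count or replicates, so no value has an SD, no test between the sexes could be made, and read depth is unknown. The female list is the longer for each mark, by 28784 to 26100 regions for H3K27Ac, 39404 to 34800 for H3K4Me1 and 18534 to 15138 for H3K27Me3, and a region found in the female list alone cannot be told apart from a list that is longer as a whole. Region edges lie on a grid of 200 bp, so a shift of 200 bp is a single step. The labelled cell type was checked on 10 ES cell markers: 9 had H3K27Ac over the gene start in each list, and Esrrb did not in either. Of 10 fibroblast markers, 0 had it in the female list and 1, Twist1, in the male list, and 6 and 5 had H3K27Me3. Of 4 Y-linked genes, 0 had H3K27Ac over the start in the female list and 1, Uty, in the male list.

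Cholesterol is made from acetyl-CoA through mevalonate, farnesyl diphosphate and squalene. When sterols are scarce, the SREBP transcription factors are carried from the endoplasmic reticulum to the Golgi, cut there and sent to the nucleus, where they switch on genes of cholesterol synthesis and uptake. Srebf2 encodes SREBP-2, which acts mainly on cholesterol genes. Srebf1 encodes SREBP-1a and SREBP-1c, which start from different promoters, and SREBP-1c acts mainly on fatty acid genes. Insig1 holds the SREBPs back in the endoplasmic reticulum when sterols are plentiful. Idi1 isomerizes isopentenyl diphosphate, Fdft1 (squalene synthase) joins farnesyl diphosphate into squalene, and Sqle (squalene epoxidase) takes the next step. H3K27Ac is found at promoters and enhancers in use, H3K4Me1 at enhancers and beside active promoters, and H3K27Me3 is laid down by Polycomb at silent or poised genes.

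The promoters over which these marks met or parted are shown from 250 bases before the start to 30 after it, 5′ to 3′ along the transcribed strand. They come from the RefSeq promoters of GRCm38.p6, of which 6 matched 4 of the 6 genes, Srebf1 with 3, and each was placed in mm9 by its only exact match. Sqle and Fdft1 were not matched. Capitals mark GC boxes, CCAAT boxes and E-boxes, each searched on both strands and spelled out after the sequences. The first pair is shown because a female-only H3K27Me3 region covers the first Srebf1 promoter whole and ends within the second one.
Srebf1, first promoter, chr11:60036054-60036333, minus strand: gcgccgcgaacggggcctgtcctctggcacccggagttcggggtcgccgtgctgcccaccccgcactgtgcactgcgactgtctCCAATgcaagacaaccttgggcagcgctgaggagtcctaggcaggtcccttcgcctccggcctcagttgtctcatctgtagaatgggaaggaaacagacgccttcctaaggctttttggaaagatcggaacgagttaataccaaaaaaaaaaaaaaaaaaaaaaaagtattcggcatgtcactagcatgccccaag
Srebf1, second promoter, chr11:60034100-60034379, minus strand: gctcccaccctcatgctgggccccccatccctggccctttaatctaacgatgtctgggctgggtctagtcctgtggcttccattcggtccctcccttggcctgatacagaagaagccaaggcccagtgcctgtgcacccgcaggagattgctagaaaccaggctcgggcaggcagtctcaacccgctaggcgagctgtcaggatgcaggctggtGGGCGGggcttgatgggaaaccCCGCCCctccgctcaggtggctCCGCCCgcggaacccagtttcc
Srebf2 and Insig1 are shown because H3K4Me1 stopped on each side of these promoters in both lists, and Idi1 because H3K4Me1 covered it in the female list and not in the male list.
Srebf2, chr15:81977449-81977728, plus strand: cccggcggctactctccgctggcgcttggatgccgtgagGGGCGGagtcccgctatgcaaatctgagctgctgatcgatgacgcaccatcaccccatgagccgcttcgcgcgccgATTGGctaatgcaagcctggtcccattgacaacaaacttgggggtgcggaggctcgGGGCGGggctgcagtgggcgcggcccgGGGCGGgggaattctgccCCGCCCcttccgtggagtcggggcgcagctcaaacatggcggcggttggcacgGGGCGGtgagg
Insig1, chr5:28397702-28397981, plus strand: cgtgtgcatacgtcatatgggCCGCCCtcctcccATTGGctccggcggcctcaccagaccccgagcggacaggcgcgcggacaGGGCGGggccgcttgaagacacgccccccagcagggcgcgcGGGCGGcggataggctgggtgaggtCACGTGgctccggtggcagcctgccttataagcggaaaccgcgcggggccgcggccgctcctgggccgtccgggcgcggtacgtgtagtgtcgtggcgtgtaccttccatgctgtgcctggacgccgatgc
Idi1, chr13:8884602-8884881, plus strand: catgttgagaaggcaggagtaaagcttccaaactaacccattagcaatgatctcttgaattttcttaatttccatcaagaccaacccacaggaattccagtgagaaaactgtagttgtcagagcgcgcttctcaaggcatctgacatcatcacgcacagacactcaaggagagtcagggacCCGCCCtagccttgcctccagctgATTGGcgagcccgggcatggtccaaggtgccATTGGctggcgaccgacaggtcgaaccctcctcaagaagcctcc

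The promoter windows of 300 bases (250 before the start and 50 after) differed in base composition. GC content was 68.7% for Srebf2 and 71.7% for Insig1, against a median of 53.0% over 32544 mouse promoters, and their CpG ratio (observed over expected) was 0.864 and 0.988 against a median of 0.387. Idi1 had a GC content of 52.3% and a CpG ratio of 0.445, both near those medians. The second promoter of Srebf1 lay between them at 62.7% and 0.478, and the first at 54.3% and 0.769. A further Srebf1 promoter, 12110 bp into the gene model at an inner cluster of starts and not printed, had 70.7% and 0.976.

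GC boxes, read as GGGCGG, were found 5 times in the Srebf2 promoter, 3 times in that of Insig1 and 1 time in that of Idi1. In Srebf1 they were found 3 times in the second promoter, 2 times in the inner one not printed and 0 times in the first. Of all promoters, 35.9% hold this motif. CCAAT boxes, read as their name, were found 2 times in Idi1, 45 and 14 bases before the start. They were found 1 time each in Srebf2, Insig1 and 2 of the Srebf1 promoters, the first and the inner one (37.4% of all promoters hold this motif). The E-box, read as CACGTG, occurred 1 time, in Insig1, 101 bases before the start (7.17% of promoters). No match overlapped another. The letters TCACNCCAC, a strict form of the sterol regulatory element, were in 0 of the 6 windows and in 1.24% of all promoters, which says only that these letters are not in these windows.

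All 6 genes carried H3K27Ac over the annotated start in both female and male ES cells, where 43.2% of protein-coding genes did. A start marked in the female list only (2.39% of genes) or in the male list only (2.95%) was found for 0 of the 6. H3K4Me1 lay over the start in both lists at Srebf1 alone (1 of 6, 34.5% of genes), in the female list only at Idi1 (1 of 6, 10.2%) and in the male list only at Sqle (1 of 6, 7.00%). H3K27Me3 lay over 1 start, that of Srebf1, in the female list only (6.01% of genes), over 0 in both lists (17.2%) and over 0 in the male list only (2.15%). Where H3K4Me1 over the start was in 1 list only, it missed the start in the other list by 369 bp (Sqle, female list) and 549 bp (Idi1, male list), and within 2 kb of the start it was present at 6 of 6 genes in each list.

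Within the windows, H3K27Ac and H3K4Me1 were present in both lists at 6 of 6 genes, against 76.3% and 74.7% of protein-coding genes. H3K27Me3 was in both lists in the windows of Srebf1, Srebf2, Insig1 and Fdft1 (4 of 6, 56.3% of genes), in neither at Sqle and Idi1 (2 of 6, 30.1%), and in 1 list only at 0 of 6 (13.7%). H3K27Ac regions numbered 22 in the female list and 20 in the male list, H3K4Me1 regions 28 and 25, and H3K27Me3 regions 14 and 10, of 162760 regions in the 6 lists. Per gene and list, H3K27Ac regions numbered from 1 at Insig1 to 6 at Sqle (female), and H3K4Me1 regions from 2 at Idi1 (male) to 8 at Sqle (female).

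**Figure D1:**
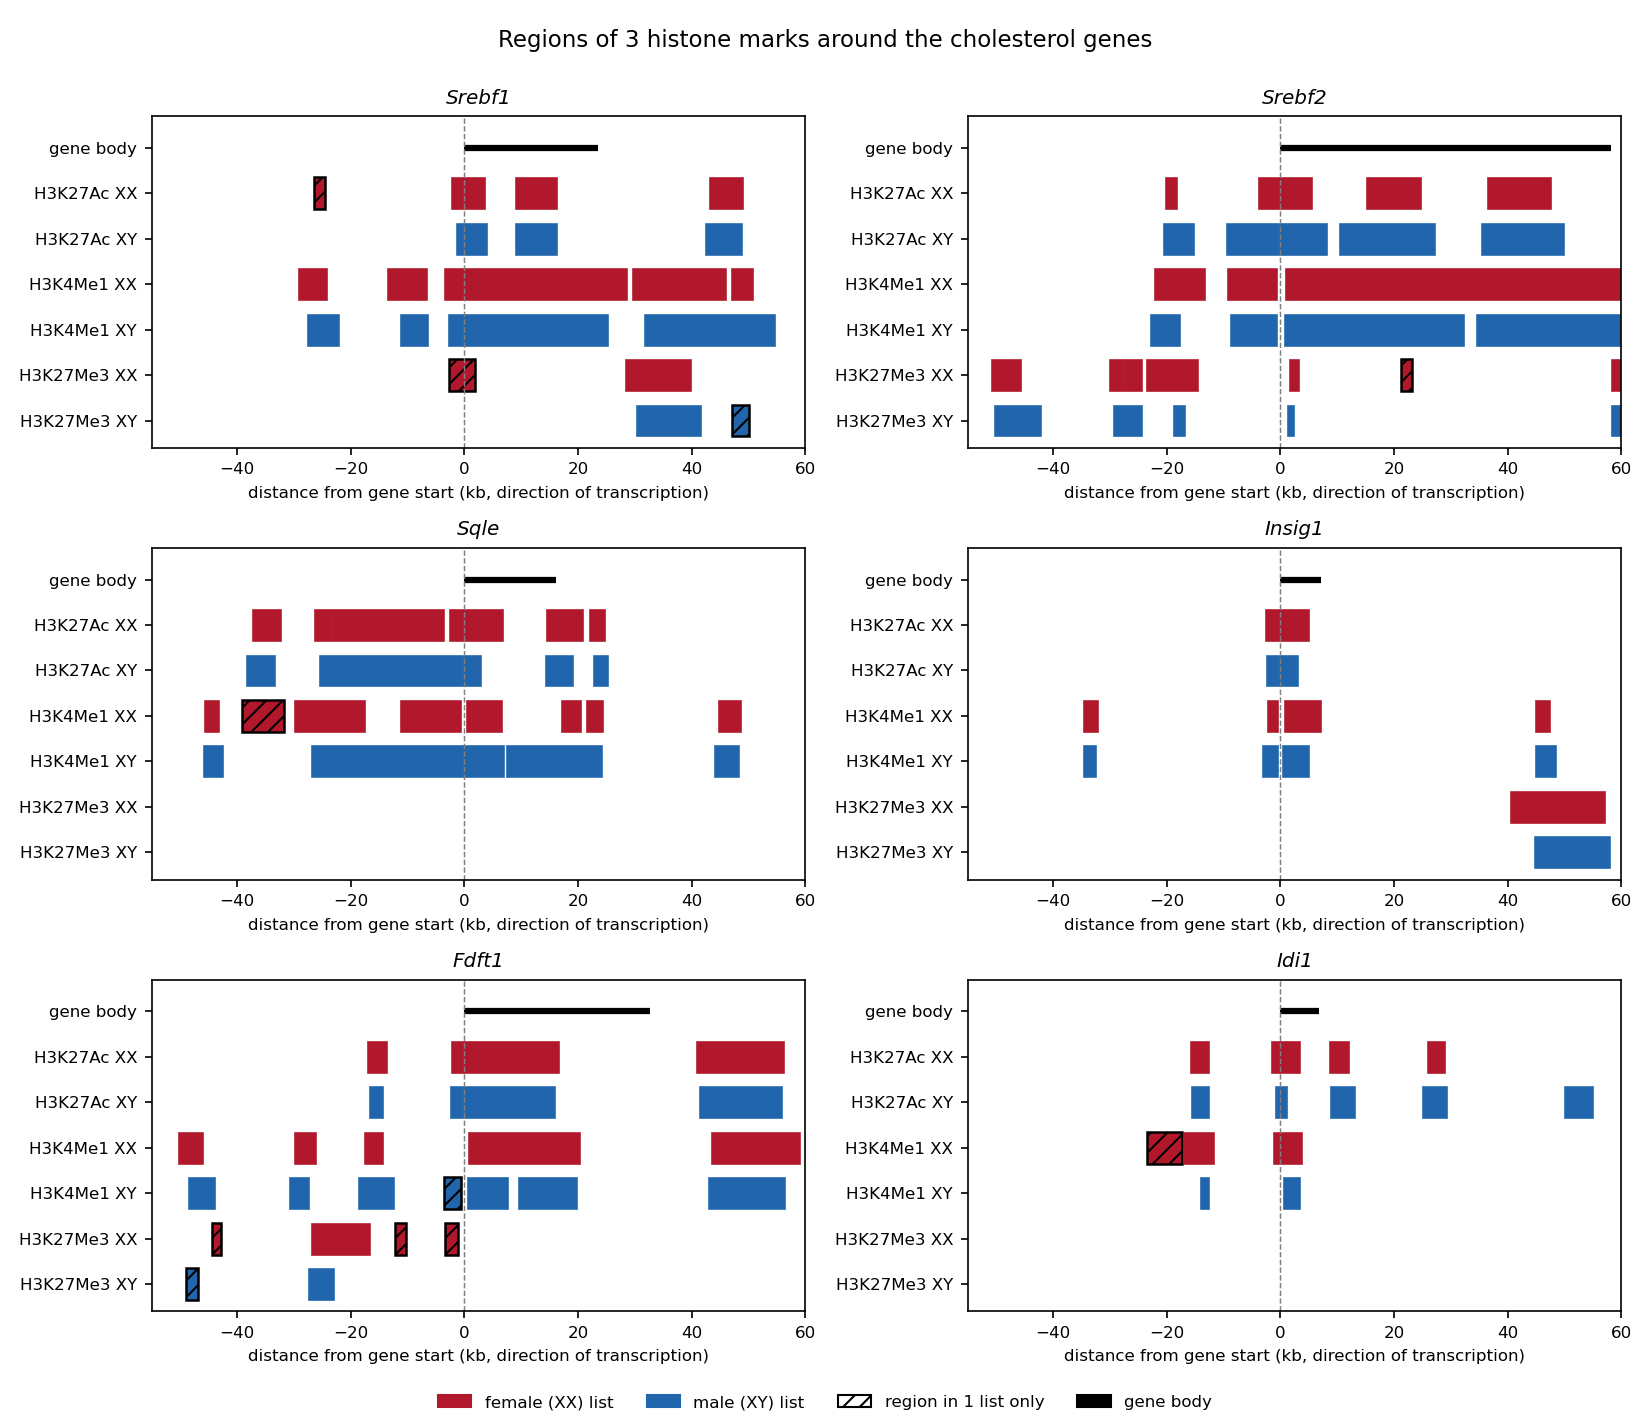
Regions of each mark in the female (XX, red) and male (XY, blue) lists around the 6 genes, against the distance from the gene start in kb along the direction of transcription; black bars are gene bodies and hatching marks regions that overlap none of the same mark in the other list. H3K27Ac covers the dashed start line in both lists at all 6 genes, and the hatched regions are H3K27Me3 (5 female, 2 male), H3K4Me1 (2 female, 1 male) and H3K27Ac (1 female).

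By the rule of 1 shared bp, regions found in a single list were few for the active marks. For H3K27Ac, 1 of 22 female regions and 0 of 20 male ones overlapped none in the other list, against 19.1% and 10.4% of the whole lists. For H3K4Me1 the counts were 2 of 28 female and 1 of 25 male regions, against 21.8% and 13.1%, and for H3K27Me3 5 of 14 female and 2 of 10 male regions, against 39.8% and 23.6%. The median H3K27Ac width was 6.0 kb in the female list and 5.6 kb in the male list, where whole lists have 3.6 and 3.8 kb. The shares were not compared at equal width. With a reciprocal overlap of 50% the female-only and male-only regions numbered 5 and 2 for H3K27Ac and 10 and 7 for H3K4Me1. No share of the whole lists was taken for that rule. When the longer list was cut to the length of the shorter one by width, the female-only H3K27Me3 regions went from 5 to 2 and the male-only ones from 2 to 3, so that the order of the lists turned.

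Most H3K27Ac regions met H3K4Me1 by at least 1 bp, and the bases under both marks were not counted. H3K27Ac regions overlapped H3K4Me1 at 20 of 22 in the female list and 17 of 20 in the male list, against 74.3% and 75.9% of all H3K27Ac regions. In turn, 20 of 28 female and 17 of 25 male H3K4Me1 regions overlapped H3K27Ac, a share not taken over the whole lists. H3K27Me3 regions overlapped H3K27Ac at 7 of 14 in the female list and 4 of 10 in the male list, against 24.4% and 24.0% of all H3K27Me3 regions. Overlap in lists does not show that both marks sat in the same cell or on the same allele.

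Srebf2, which encodes SREBP-2, lies on the plus strand of chromosome 15 from 81977696 to 82035806 (58.1 kb), and the male list covered more of it with H3K27Ac. Each list held 4 H3K27Ac regions, and each female region had 1 male partner that was wider. Over the start, the female region ran from 3895 bp before to 5503 bp after it (9.4 kb, chromosome 15 from 81973801 to 81983199). The male region ran from 9495 bp before to 8303 bp after it (17.8 kb, from 81968201 to 81985999). Both inner regions followed the same order, at 9.6 against 17.0 kb and 11.4 against 14.6 kb. In the window 32.6 kb was covered in the female list and 55.0 kb in the male list, and the stretch covered in both was again 32.6 kb. H3K27Ac therefore covered 45.6% of the gene body in the female list and 68.7% in the male list.

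H3K4Me1 filled most of Srebf2 in both sexes but not its start. In the female list it stopped 497 bp before the start and began again 905 bp after it, as a single region of 90.8 kb that ran past the gene's end to 91.7 kb. In the male list it stopped at the same base upstream and resumed 705 bp after the start, in regions of 31.6 and 56.4 kb. H3K4Me1 covered 75.0 kb of the window in the female list and 68.8 kb in the male list.

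H3K27Me3 lay inside Srebf2 as short regions. Just after the start, within an intron, the female region spanned 1505 to 3303 bp (1.8 kb) and the male region 1105 to 2503 bp (1.4 kb). Both sat inside the H3K27Ac and H3K4Me1 of their own list. With lists of equal length the female region was lost, its nearest H3K27Me3 then being 14.5 kb from the start, while the male region stayed. Among the widest 50% of regions neither was left. A further female region of 1.8 kb, 21.3 to 23.1 kb into the gene, had its nearest male H3K27Me3 region 18.8 kb away. At the far end a region began at the same base in both lists, 58105 bp after the start, with 6 bp in Srebf2 and the rest, up to 12.2 kb in the female list and 13.6 kb in the male list, beyond it. Upstream, the start of Ccdc134, 19.3 kb before that of Srebf2, lay under a female H3K27Me3 region of 9.2 kb and outside the male one of 2.2 kb, while H3K27Ac and H3K4Me1 covered it in both lists.

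Srebf2 is also the host gene of Mir33, a microRNA known to lower the cholesterol exporter Abca1. Its precursor lies 50.9 kb after the Srebf2 start, on chromosome 15 from 82028552 to 82028620. The mature form from the 5′ arm is shown with its seed, bases 2 to 8, in capitals, as RefSeq gives it.
mmu-miR-33-5p: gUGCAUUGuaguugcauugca
H3K4Me1 covered the Mir33 locus in both lists, and H3K27Ac and H3K27Me3 in neither. The last H3K27Ac region inside Srebf2 ended before it, at 47.7 kb in the female list and 49.9 kb in the male list.

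Srebf1 lies on the minus strand of chromosome 11 from 60012591 to 60036083 (23.5 kb), and it was the gene with all 3 marks over its start in the female list. H3K27Ac ran from 2316 bp before to 3682 bp after the start in the female list (6.0 kb) and from 1516 to 4082 bp in the male list (5.6 kb). H3K4Me1 ran from 3516 bp before to 28682 bp after it in the female list and from 2916 to 25282 bp in the male list, covering the whole gene body in each. Both active marks thus held the start of Srebf1 in both sexes.

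H3K27Me3 at the Srebf1 start was in the female list only. The region, on chromosome 11 from 60034201 to 60038799, ran from 2716 bp before the start to 1882 bp after it (4.6 kb), with 2716 bp between genes, 1824 bp in introns and 59 bp in exons. The nearest male H3K27Me3 region lay 28.4 kb from it. Among all H3K27Me3 regions over gene starts in the female list its width stood at percentile 17.1. It stayed female-only with lists of equal length and among the widest 50% of regions.

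Srebf1 has 13 annotated starts, and the female H3K27Me3 region covered 1 of them. That is the first, of a transcript annotated as non-coding. The next start, of protein-coding transcripts 1977 bp further in, lay 95 bp beyond the end of the region. By the RefSeq start of the second promoter printed above, the region ended 72 bp before it and held 179 of its 300 bases, whereas it held all 300 of the first promoter. A cluster of starts from 12116 to 15393 bp into the gene, which also holds starts of protein-coding transcripts, lay 10234 bp or more from it. None of that cluster lay under H3K27Me3 in either list.

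That inner cluster had its own H3K27Ac region, from 8884 to 16282 bp after the gene start (7.4 kb, chromosome 11 from 60019801 to 60027199), with the same edges in both lists. It was the 1 pair of H3K27Ac regions with identical edges among the 6 genes, and no H3K4Me1 or H3K27Me3 pair had identical edges. Of the 13 starts, those from 16469 bp onwards lay outside H3K27Ac in both lists and under H3K4Me1 in both.

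Around Srebf1, an H3K27Ac region of 2.0 kb in Tom1l2, 24.5 to 26.5 kb upstream, was in the female list only and 23.0 kb from the nearest male one. H3K4Me1 covered the same stretch in both lists, in a female region of 5.2 kb and a male one of 5.6 kb. Downstream, in Rai1, an H3K27Me3 region was shared, from 28.3 to 39.9 kb in the female list and from 30.3 to 41.7 kb in the male list. A second Rai1 region, intronic and 3.0 kb wide, from 47.1 to 50.1 kb, was in the male list only.

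**Figure D2:**
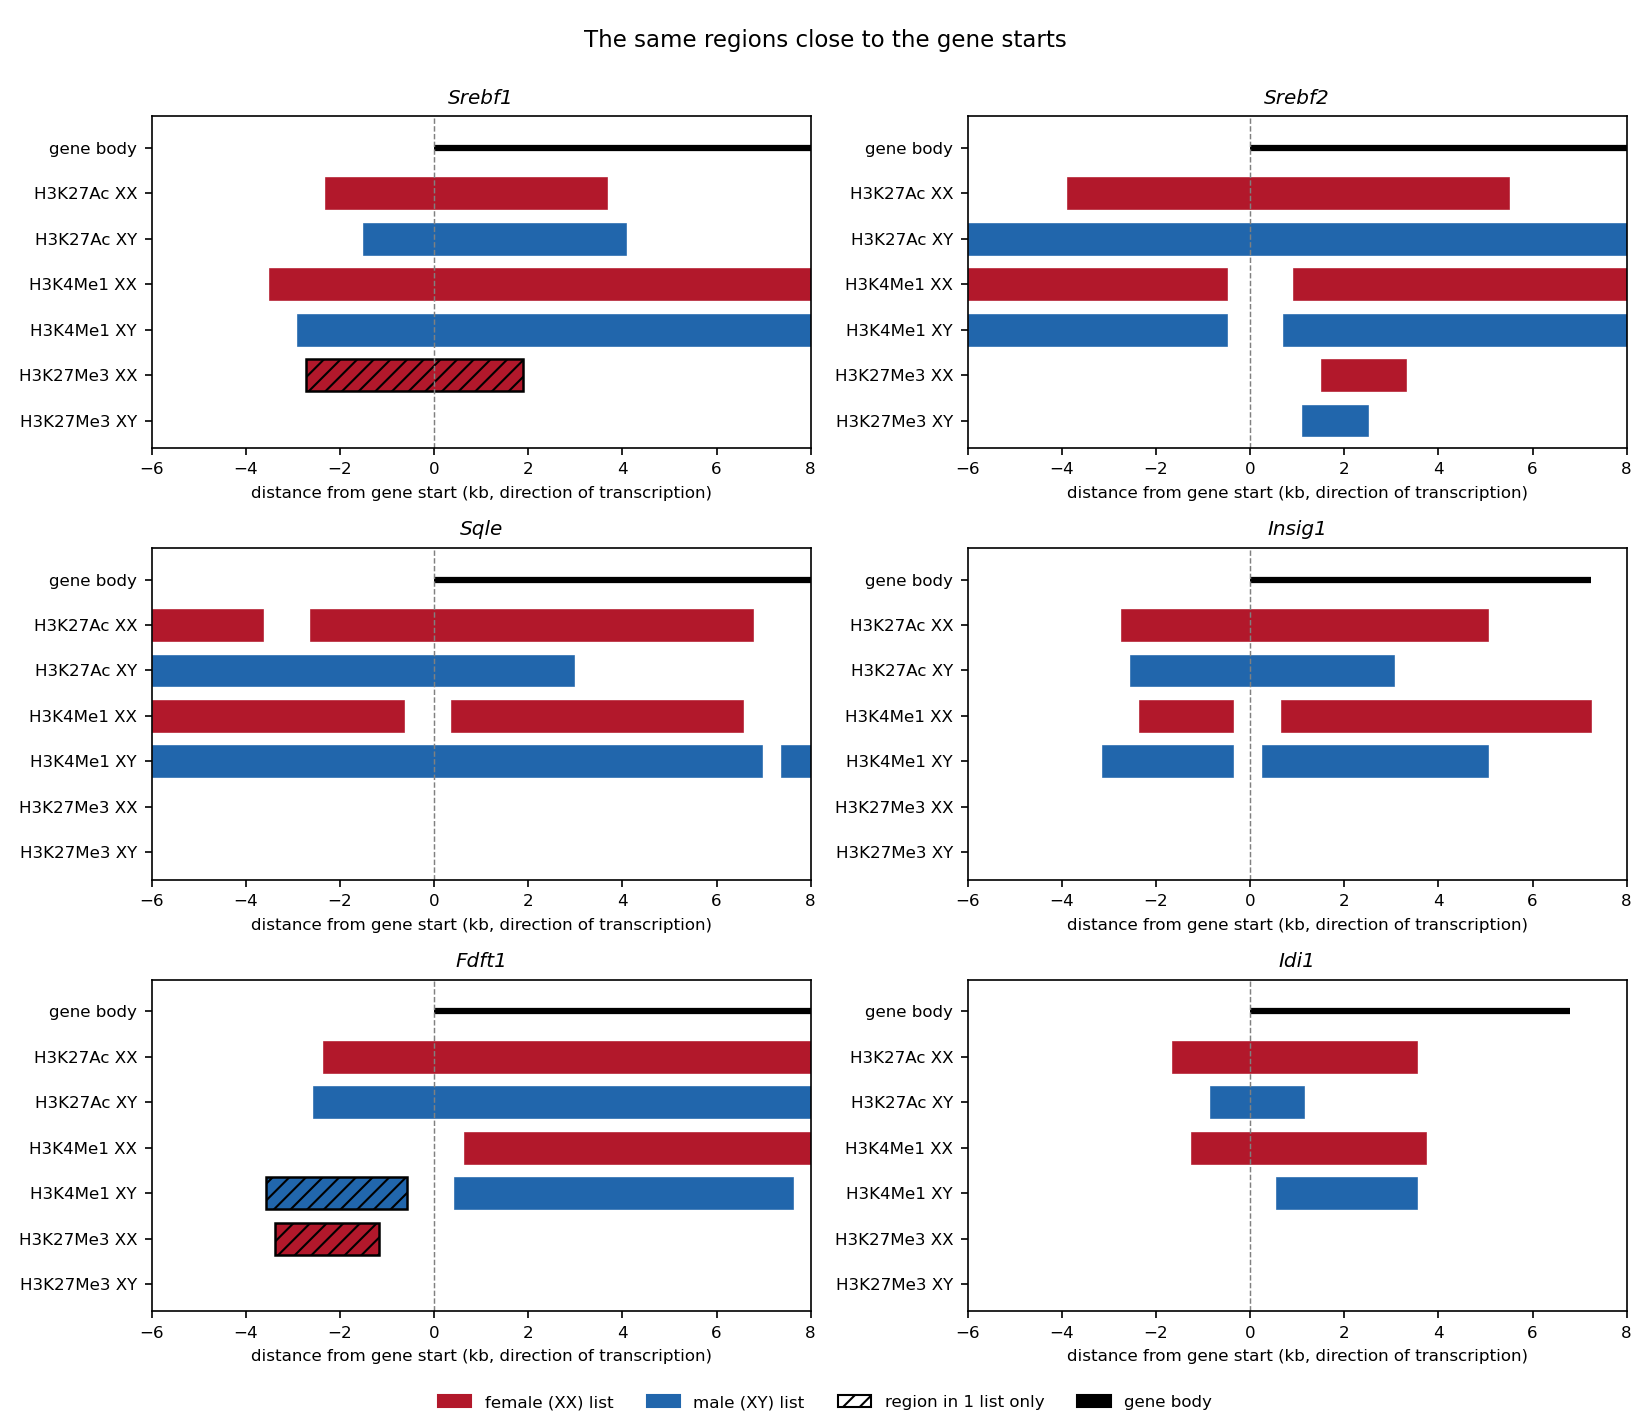
The same regions from 6 kb before to 8 kb after each gene start (dashed line), female list in red and male list in blue, with hatching where a region is in 1 list only. H3K27Ac spans each start, H3K4Me1 stops short of it on both sides at Srebf2 and Insig1 in both lists, and H3K27Me3 reaches a start only at Srebf1 in the female list.

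Insig1, the sterol-dependent brake on SREBP transport, lies on the plus strand of chromosome 5 from 28397952 to 28405201 (7.25 kb) and had the simplest pattern of the 6 genes. Its single H3K27Ac region ran from 2751 bp before to 5047 bp after the start in the female list (7.8 kb) and from 2551 to 3047 bp in the male list (5.6 kb). The male region lay wholly within the female one, and coverage of the gene body was 69.6% against 42.0%. Both regions also held the start of the lincRNA Gm16719, 307 bp upstream on the other strand.

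H3K4Me1 flanked the Insig1 start in both sexes. It ended 353 bp before the start in both lists and resumed 649 bp after it in the female list and 249 bp after it in the male list, leaving gaps of 1001 and 601 bp. H3K27Me3 in the window was far from the gene, between genes, from 40.4 to 57.0 kb in the female list and 44.6 to 58.0 kb in the male list, where an H3K4Me1 region lay within it in both.

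Idi1, the isomerase of the mevalonate pathway, lies on the plus strand of chromosome 13 from 8884852 to 8891641 (6.79 kb), and its H3K27Ac and H3K4Me1 regions at the start were wider in the female list. H3K27Ac over the start ran from 1651 bp before to 3547 bp after it in the female list (5.2 kb) and from 851 to 1147 bp in the male list (2.0 kb). It covered 52.3% of the gene body in the female list and 16.9% in the male list. H3K4Me1 covered the start in the female list, from 1251 bp before to 3747 bp after it (5.0 kb). In the male list it began 549 bp after the start and ended at 3547 bp (3.0 kb).

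Upstream of Idi1, a female-only H3K4Me1 region of 6.2 kb lay in an intron of Wdr37, 17.3 to 23.5 kb before the start. In the whole window H3K4Me1 covered 16.6 kb in the female list and 4.6 kb in the male list, the stretch in both being 4.6 kb. H3K27Ac in the window totalled 15.4 and 14.0 kb. Downstream of Idi1 the paired H3K27Ac regions were wider in the male list, at 4.4 against 3.6 kb for the nearer pair (from 8.75 and 8.55 kb after the start) and 4.4 against 3.2 kb for the farther one (from 24.9 and 25.7 kb). A male region of 5.0 kb that began 49.9 kb after the start overlapped a female one that began beyond the window. The nearest H3K27Me3 lay 99.5 kb away in the female list and 146 kb away in the male list.

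Fdft1, squalene synthase, lies on the minus strand of chromosome 14 from 63763990 to 63796630 (32.6 kb) and its H3K27Ac region over the start was of nearly equal width in both lists. Over the start H3K27Ac ran from 2369 bp before to 16629 bp after it in the female list (19.0 kb) and from 2569 to 16029 bp in the male list (18.6 kb), so that the edges differed by 200 and 600 bp. Of the bases with H3K27Ac in its window, 92.5% were in both lists, the highest share of the 6 genes.

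Upstream, the H3K27Ac region at the start of Neil2 was 3.6 kb wide in the female list and 2.4 kb in the male list.

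The flank upstream of the Fdft1 start differed between the lists. In the male list an H3K4Me1 region of 3.0 kb, which overlapped none in the female list, ran from 3.57 to 0.571 kb before the start. In the female list an H3K27Me3 region of 2.2 kb, which overlapped none in the male list, ran from 3.37 to 1.17 kb before it (chromosome 14 from 63797801 to 63799999, between genes). The regions overlap in position, and each met the H3K27Ac region of its own list. The nearest H3K27Me3 region to the start was 1.17 kb away in the female list and 23.0 kb away in the male list.

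Farther upstream of Fdft1, female-only H3K27Me3 regions lay 10.2 to 12.2 kb away in Neil2 (2.0 kb) and 42.8 to 44.4 kb away in an intron of Gata4 (1.6 kb). A male-only region of 2.2 kb lay in the same gene, 46.8 to 49.0 kb away and 2.4 kb from the female one. Between them H3K27Me3 was shared, as a female region of 10.4 kb that began 16.6 kb upstream and a male region of 4.6 kb that began 23.0 kb upstream. Of the bases with H3K27Me3 in the window, 21.1% were in both lists.

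Sqle, squalene epoxidase, lies on the plus strand of chromosome 15 from 59146632 to 59162747 (16.1 kb), and its acetylated stretch upstream was continuous in the male list and broken in the female list. The male H3K27Ac region over the start ran from 25631 bp before to 2967 bp after it (28.6 kb). It overlapped 3 female regions, from 26.4 to 23.4 kb before the start, from 23.4 to 3.63 kb before it, and from 2631 bp before to 6767 bp after it (9.4 kb). The female regions were parted by 1 bp and by 1001 bp, and the stretch they made reached 26.4 kb upstream, against 25.6 kb for the male region. The window as a whole held 46.8 kb of H3K27Ac in the female list and 41.6 kb in the male list, so the wider male region over the start came with less H3K27Ac around Sqle in total.

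H3K4Me1 at Sqle was also in more pieces in the female list, and unlike H3K27Ac it was broken at the start there. The female list held 8 regions and the male list 4. A male region of 34.0 kb, from 27031 bp before to 6967 bp after the start, covered the start, where the female list had a gap of 1001 bp, from 633 bp before to 369 bp after it. H3K4Me1 covered 38.5% of the gene body in the female list and 97.5% in the male list. A female H3K4Me1 region of 7.4 kb, 31.6 to 39.0 kb upstream and between genes, overlapped no male one, yet H3K27Ac of 5.2 kb lay there in both lists. H3K27Me3 was absent from the window in both lists, its nearest regions being 107 and 111 kb from the start.

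Across the 6 genes the H3K27Ac region over the start was wider in the female list at Srebf1, Insig1, Fdft1 and Idi1, by 1.07, 1.39, 1.02 and 2.60 times. It was wider in the male list at Srebf2 and Sqle, where the female width was 0.528 and 0.329 times the male one. The value for Sqle rests on the break of 1001 bp upstream of the start in the female list. Median widths were 8.6 kb in the female list and 11.7 kb in the male list, and those of all H3K27Ac regions over protein-coding starts were 3.8 and 4.0 kb. Among those regions Fdft1 stood at percentile 95.3 in the female list and 95.5 in the male list, Sqle at 83.7 and 98.4, and Srebf2 at 83.7 and 94.9. Insig1 stood at 78.9 and 67.2, Srebf1 at 70.1 and 67.2, and Idi1 at 64.6 and 15.2. Idi1 in the male list was the 1 case below the middle of the list.

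**Figure D3:**
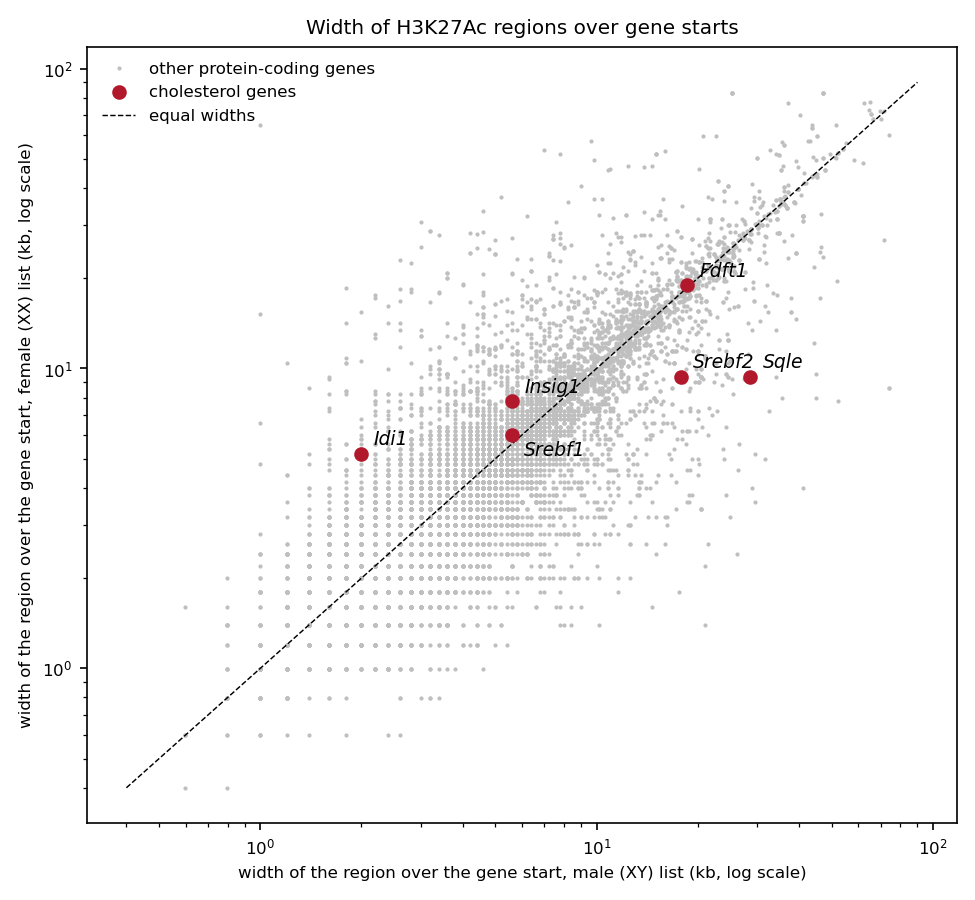
Width of the H3K27Ac region over the gene start in the male list (x axis, kb, log scale) and the female list (y axis, kb, log scale) for protein-coding genes marked in both (grey) and the 6 cholesterol genes (red); the dashed line marks equal widths. Sqle (28.6 against 9.4 kb) and Srebf2 (17.8 against 9.4 kb) lie on the male side and Idi1 (2.0 against 5.2 kb) on the female side. The female width at Sqle stops at a break of 1001 bp.

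Neither edge of the H3K27Ac region moved more throughout: the shift was larger upstream at 3 genes (Srebf1, Srebf2 and Sqle) and downstream at 3 (Insig1, Fdft1 and Idi1). The median shift between the lists, regardless of direction, was 800 bp for the upstream edge and 2200 bp for the downstream edge of the 6 regions. Over 9673 genes with H3K27Ac over the start in both lists the medians were 400 and 600 bp. By their median the 6 regions were also wider than those over protein-coding starts, and shifts were not compared at equal width. The largest shifts were those of the upstream edge at Sqle, by 23000 bp across the break of 1001 bp, and at Srebf2, by 5600 bp. The smallest were 200 bp upstream at Insig1 and Fdft1.

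H3K27Ac over the start without H3K4Me1 there was found at 4 of 6 genes in the female list (Srebf2, Sqle, Insig1 and Fdft1; 15.9% of protein-coding genes) and at 4 of 6 in the male list (Srebf2, Insig1, Fdft1 and Idi1; 18.3%). At 3 of them in each list H3K4Me1 lay within 2 kb on both sides, namely Srebf2, Sqle and Insig1 in the female list (6.34% of genes) and Srebf2, Insig1 and Fdft1 in the male list (7.46%). This flanking rule was chosen after these gaps had been seen. All 6 genes have H3K27Ac over the start, whereas the shares are of all protein-coding genes, with or without it. Among genes with H3K27Ac there, those shares would be higher. H3K27Ac lay over the start of 9673 genes in both lists, 535 in the female only and 660 in the male only. Of the genes with it, 3567 (female list) and 4088 (male list) had no H3K4Me1 there, and 1418 and 1669 met the flanking rule. The gaps were 1401 bp at Srebf2, 1001 bp at Sqle and 1001 bp at Insig1 in the female list, and 1201 bp at Srebf2, 601 bp at Insig1 and 1001 bp at Fdft1 in the male list. At Fdft1 in the female list and at Idi1 in the male list the downstream side was as close, at 631 and 549 bp, and the upstream side was 14.4 and 12.5 kb away.

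The lists shared most of the bases with active marks near the 6 genes. H3K27Ac covered 156 kb in the windows of the female list and 166 kb in those of the male list, and 74.1% of the bases in either list were in both. H3K4Me1 covered 257 and 245 kb with 71.6% in both, and H3K27Me3 covered 64.9 and 43.2 kb with 41.5% in both. The medians of the single genes were 75.0%, 69.8% and, over the 4 genes with H3K27Me3, 46.5%. The medians over all protein-coding genes with the mark in the window were 66.7%, 66.2% and 44.1%. The range across the 6 genes was 59.3% at Srebf2 to 92.5% at Fdft1 for H3K27Ac and 27.7% at Idi1 to 89.7% at Srebf2 for H3K4Me1.

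**Figure D4:**
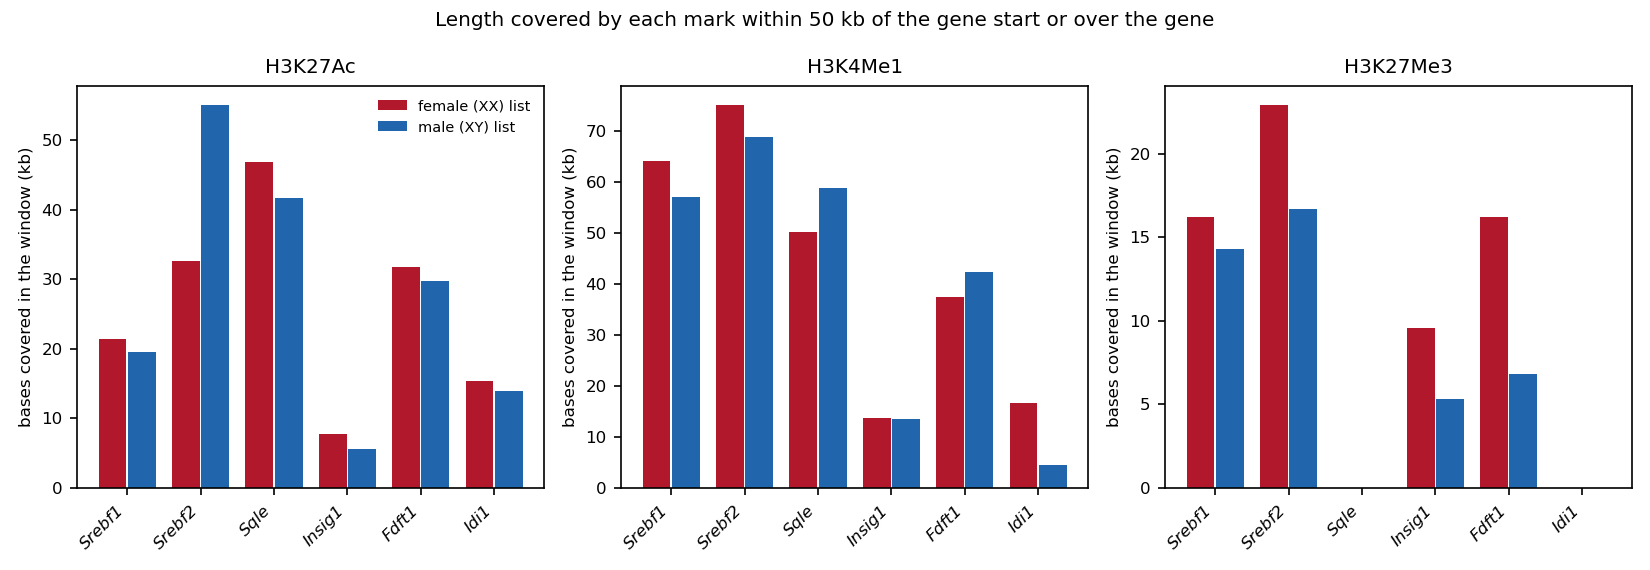
Bases (kb) covered by H3K27Ac, H3K4Me1 and H3K27Me3 in the window of each gene in the female (red) and male (blue) lists, without error bars as each list is a single set of regions. The female bar is higher for H3K27Me3 at the 4 genes that have it, and H3K27Ac at Srebf2 is 32.6 kb in the female list and 55.0 kb in the male list.

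The direction of these differences was not uniform. H3K27Ac covered more bases in the female list at 5 genes and in the male list at Srebf2, and H3K27Me3 covered more in the female list at each of the 4 genes that had it. H3K4Me1 covered more in the male list at Sqle (58.8 against 50.2 kb) and Fdft1 (42.4 against 37.4 kb) and more in the female list at the other 4. The share of all protein-coding genes with more cover in the female list was not taken for any mark. As each female list is the longer, a female excess here cannot be told apart from that of the whole list. Over gene bodies the median cover of the 6 genes was 51.6% in the female list and 45.5% in the male list for H3K27Ac and 75.8% and 80.6% for H3K4Me1, against medians over all genes of 2.28% and 2.14%, and 15.5% and 13.1%. Genes without H3K27Ac over the start count in the medians over all genes, whereas all 6 genes had it.

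The wider cholesterol pathway was taken as a list of 37 genes by role, of which 36, the 6 included, were matched to the annotation (Hmgcs1 was not, and Msmo1 appears there as Sc4mol). H3K27Ac lay over the start of 30 in both lists, of 0 in the female list only and of 2 in the male list only, leaving 4 without it, where 43.2%, 2.39% and 2.95% of all protein-coding genes fell in the first 3 groups. H3K4Me1 lay over 20 starts in both lists, 5 in the female only and 3 in the male only, where 34.5%, 10.2% and 7.00% of all genes did. H3K27Me3 lay over 1 in both, 2 in the female only and 2 in the male only, against 17.2%, 6.01% and 2.15%. The 30 genes other than the 6 gave 24, 0 and 2 for H3K27Ac, 19, 4 and 2 for H3K4Me1, and 1, 1 and 2 for H3K27Me3.

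Of the synthesis enzymes, 19 of 20 had H3K27Ac over the start in both lists, and Sc5d, which adds a double bond to the sterol ring, had it in the male list only. Its nearest female H3K27Ac region was 151984 bp away. H3K27Me3 lay over 1 synthesis start, that of Hsd17b7, a sterol ketoreductase, in the male list only, and its nearest female region was 229 bp from that start. Among the 9 regulators H3K27Ac lay over 7 starts in both lists and over that of Scap, the escort of the SREBPs, in the male list only, with the nearest female region 24609 bp away. Insig2, the paralog of Insig1, had none in either list. Srebf1 was the 1 regulator with H3K27Me3 over its start.

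Of uptake and transport genes 7 are counted, since some of this group are not reported here. H3K27Ac lay over 4 of these 7 starts in both lists, and in neither list over those of Mylip, a ubiquitin ligase, Stard4, a sterol carrier, and Abca1, a cholesterol exporter. H3K27Me3 lay over the start of Abca1 in both lists, of Mylip in the male list only and of Abcg1, another exporter, in the female list only. At Abcg1 the nearest male region was 558 bp from the start, and at Mylip the nearest female region was 103490 bp away. Abcg1 had H3K27Ac over the start in both lists as well.

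**Figure D5:**
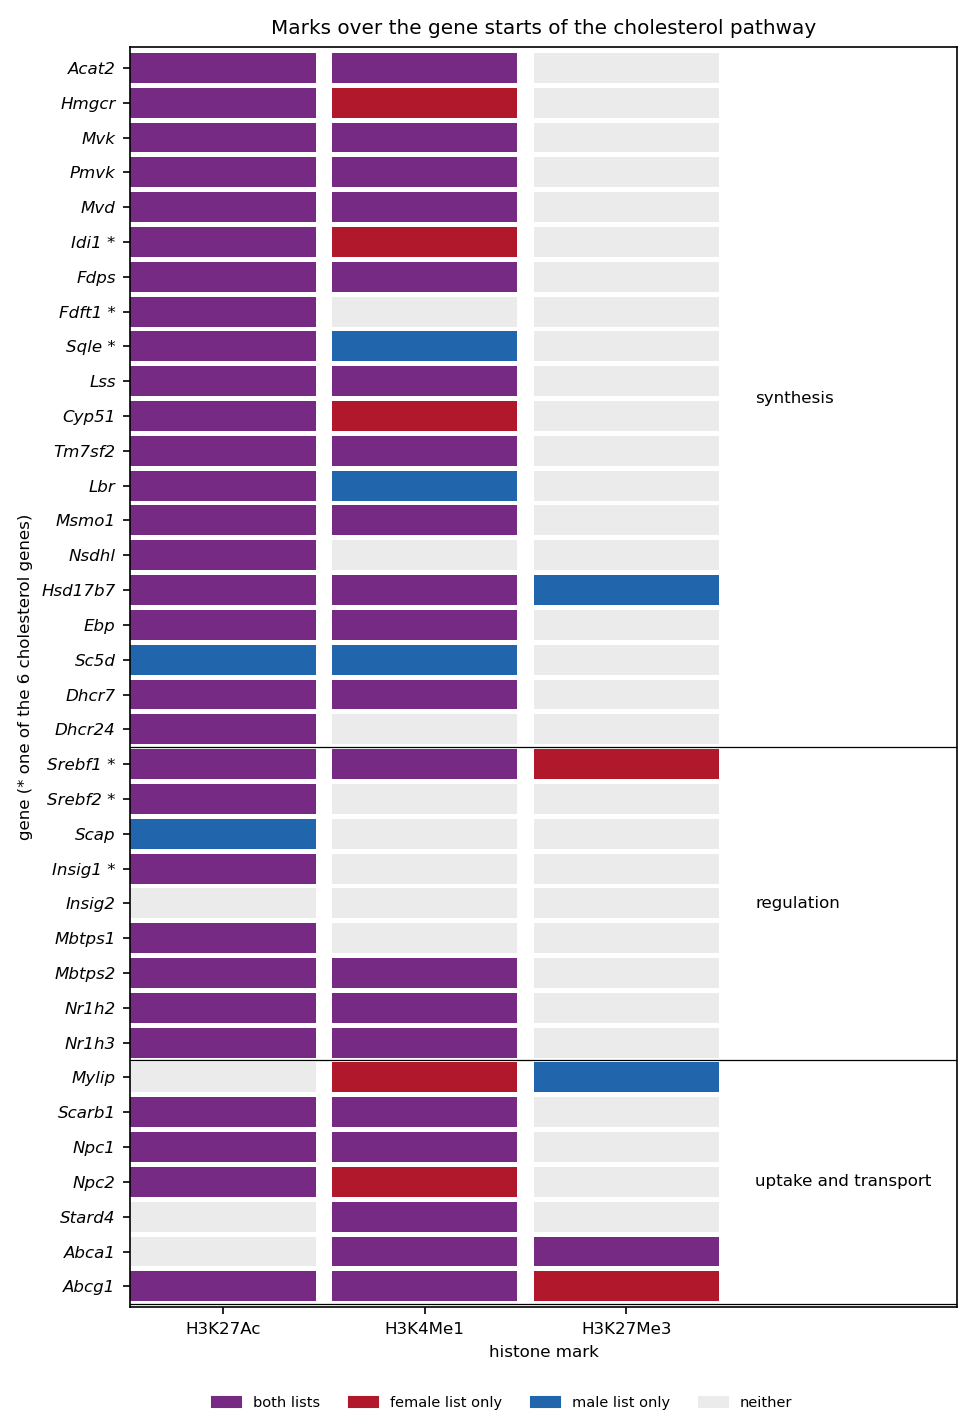
Presence of each mark (columns) over the start of 36 genes of the cholesterol pathway (rows, grouped by role, asterisks for the 6 genes described here): purple for both lists, red for the female list only, blue for the male list only and grey for neither. H3K27Ac is in both lists at 19 of 20 synthesis genes and 4 of 7 uptake and transport genes, and H3K27Me3 is at 1 synthesis gene.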

How the data were processed

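Chromatin from XX and XY mouse ES cells was immunoprecipitated for H3K27Ac, H3K4Me1 and H3K27Me3 in 2 libraries per sex and mark. Per the methods, the authors mapped reads to mm9 (Bowtie2) and took enrichment from Bedtools. Bowtie and deepTools also stand in the submitters' processing notes. The authors deposited 6 lists of region coordinates, without counts, scores or signal. The region caller, its threshold, the use of IgG and input in calling regions, and the pooling of libraries were not given in the sources used here.

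Starts were converted to 1-based positions. Gene models were those of GENCODE M1 on NCBIM37 (the assembly of mm9), with 37273 genes, and the 5′ base of a model was its start. Regions overlapping the gene or within 50 kb of the start were collected with Python 3.11.15, numpy 2.4.6 and pandas 2.3.3. Regions sharing at least 1 bp were called shared. Shares of all 22367 protein-coding genes, or of whole lists, are the background. Overlap counts were checked against bedtools 2.31.1 (12 of 12 equal), and the interval code was tested on simulated data. With 1 list per sex and mark, no test was run.

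The genes and lists were chosen with earlier results of these data known. Named were the 6 genes, genes whose starts share a region with theirs or lie in H3K27Me3 or in a region of 1 list, and pathway genes with H3K27Me3, without H3K27Ac, or with either in 1 list only. Genes that regions lie in were named after their values were seen. Some uptake genes of the list are not reported here and were left out of its counts. The alternatives were merging of regions up to 1 kb apart, the widest 50% of regions, lists of equal length, windows of 5 and 100 kb, any annotated start, starts within 2 kb, and reciprocal overlap of 50%.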

Additional observations from a re-analysis of the deposited data

How the results depend on the processing

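Of 267 alternative values for 55 results, 203 stayed within 1.5 times the reported value (for shares of bases, within its 95% interval) and 64 moved further. That interval served only as a cut-off and measures no spread between libraries, as the lists hold no replicates. The order of the lists turned for H3K27Me3 regions in 1 list only (2 female and 3 male with equal numbers of regions), for H3K4Me1 regions in 1 list only (0 and 1 within 5 kb), for the H3K4Me1 regions in the windows (9 and 12 within 5 kb), for pathway starts with H3K4Me1 (33 and 34 within 2 kb) and for the nearest H3K27Me3 at Srebf2 (14.5 and 24.3 kb in the widest 50%). H3K27Ac lay over 6 of 6 gene starts in both lists under each alternative except the widest 50% of regions, which left 5 in the male list and so 1 gene in the female list only. No paired analysis was possible because each list stands for a sex and a mark as a whole and no result comes from a test, and no library could be left out for the same reason.

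With a reciprocal overlap of 50%, the regions in 1 list only numbered 5 (female) and 2 (male) with H3K27Ac, 10 and 7 with H3K4Me1, and 8 and 4 with H3K27Me3. In the widest 50% they were 2 and 2, 7 and 2, and 2 and 1. The windows then held 17 female and 12 male H3K4Me1 regions and 7 and 6 H3K27Me3 regions, 2 genes had H3K4Me1 in the female list only, and the share of bases in both lists was 68.2% for H3K27Ac and 61.5% for H3K4Me1. The nearest H3K27Me3 moved to 14.5 kb (female) and 24.3 kb (male) at Srebf2, 16.6 kb (female) at Fdft1, 299.7 and 300.3 kb at Idi1 and 578.8 kb (male) at Sqle. Equal numbers of regions gave 2 female-only H3K27Me3 and 2 male-only H3K4Me1 regions and 14.5 kb at Srebf2 (female). Merging gave 1 female-only H3K4Me1 region and 2 genes with H3K4Me1 over the start in the male list only. With any annotated start, H3K27Me3 in the male list was 8.74 kb from Srebf1.

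Within 5 kb, the windows held 11 female and 10 male H3K27Ac, 9 and 12 H3K4Me1 and 5 and 2 H3K27Me3 regions, the female-only ones numbered 0, 0 and 3 and the male-only H3K27Me3 ones 0, H3K27Me3 was female-only at 2 genes, and 83.6% of H3K4Me1 and 9.30% of H3K27Me3 bases were in both. Within 100 kb there were 37 female H3K27Ac, 54 and 49 H3K4Me1 and 19 male H3K27Me3 regions, with 5 female-only H3K27Ac, 6 female-only and 4 male-only H3K4Me1 and 4 male-only H3K27Me3 regions, 1 gene with H3K27Me3 in the female list only, and 65.1% of H3K27Me3 bases in both. Counting regions within 2 kb of the start gave H3K4Me1 at 6 genes in each list and so at 0 in a single list, H3K27Me3 at 3 genes (female list) and 1 gene (male list), with 2 in the female only, and H3K27Me3 at 9 (female) and 8 (male) of the pathway genes, against 3 and 3 over the start. The causes were not tested beyond what these settings change by construction. Read depth behind each list is unknown.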
